A study of Rattus norvegicus with 11 samples.

Results

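The NADPH oxidases and dual oxidases are the enzymes that make superoxide or hydrogen peroxide on purpose. Their transcripts were followed here through 10 genes: Duox1, Duox2, Duoxa1, Duoxa2, Nox1, Noxo1, Noxa1, Nox4, Cyba and Cybb. The genes were matched by symbol, all 10 were found among the 18507 genes of the deposited table, and they were chosen with measured values of these same samples known. The levels and differences of the 10 genes are therefore given as a description, with no test. The samples are bladder tissues of adult female Sprague-Dawley rats, with 3 PBOO and 3 normal samples at week 4 and 2 PBOO and 3 normal samples at week 5. In PBOO, partial bladder outlet obstruction, a suture was tied around the bladder neck and urethra, while the normal rats had the abdominal incision alone. A week 5 PBOO sample was lost to library quality control in the study, and the columns of the week 5 normal samples carry the name adult. The question put to each week was how obstructed bladder differed from normal bladder.

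Each oxidase is an enzyme with a flavin and heme core that passes electrons from NADPH across a membrane to oxygen. DUOX1 and DUOX2 sit at the surface of epithelial cells, release hydrogen peroxide, and leave the endoplasmic reticulum only with their maturation factors DUOXA1 and DUOXA2. NOX1, an epithelial oxidase, needs the organizer NOXO1 and the activator NOXA1, whereas NOX2, encoded by Cybb, is the oxidase of the phagocyte burst. The small membrane subunit p22phox, encoded by Cyba, stabilizes NOX1, NOX2 and NOX4.

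In the RefSeq order of genes (GRCr8), Duox2, Duoxa2, Duoxa1 and Duox1 follow each other on chromosome 3. Of the 10 genes, 9 had a promoter window in the RefSeq table, which runs from 250 bases before to 50 bases after an annotated start, and Duoxa2 had none. The windows of Duox2 (chr3:129698704-129699003, minus strand), Cyba (chr19:67404165-67404464, minus strand) and Cybb (chrX:16065016-16065315, minus strand) are shown because these 3 genes stand for the epithelial, the shared and the phagocyte oxidase in the results below. Capitals mark matches, on either strand, to the motifs listed after them.
Duox2: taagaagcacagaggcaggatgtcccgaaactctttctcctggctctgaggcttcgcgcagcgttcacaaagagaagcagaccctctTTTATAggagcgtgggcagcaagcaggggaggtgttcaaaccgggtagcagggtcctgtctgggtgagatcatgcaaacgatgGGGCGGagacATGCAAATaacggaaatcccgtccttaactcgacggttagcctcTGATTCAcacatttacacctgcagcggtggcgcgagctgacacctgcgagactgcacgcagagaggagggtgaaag
Cyba: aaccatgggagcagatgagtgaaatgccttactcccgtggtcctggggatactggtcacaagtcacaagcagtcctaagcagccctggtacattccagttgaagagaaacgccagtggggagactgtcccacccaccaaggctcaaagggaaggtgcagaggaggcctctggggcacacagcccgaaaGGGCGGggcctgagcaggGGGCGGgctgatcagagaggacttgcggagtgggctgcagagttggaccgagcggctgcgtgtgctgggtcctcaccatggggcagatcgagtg
Cybb: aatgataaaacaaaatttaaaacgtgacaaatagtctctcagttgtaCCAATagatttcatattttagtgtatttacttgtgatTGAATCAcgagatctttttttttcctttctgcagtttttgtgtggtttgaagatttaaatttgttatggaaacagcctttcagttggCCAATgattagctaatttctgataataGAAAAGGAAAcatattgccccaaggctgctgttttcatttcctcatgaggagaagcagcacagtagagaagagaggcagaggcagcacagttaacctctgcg

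The Duox2 window held the octamer ATGCAAAT with its first base 70 bases before the start, a match found in 1.78% of the 33469 promoters of the table. It also held a match to the AP-1-like motif TGANTCA, with T as the middle base, 26 bases before the start. That motif was present in 7.33% of promoters. A TATA box, TATAAA, lay on the opposite strand 163 bases before the start, and this motif was in 14.2% of promoters. The Cybb window also matched the AP-1-like motif, with A as the middle base, 166 bases before its start. It alone of the 9 windows held an interferon response (ISRE-like) motif (3.92% of promoters) and the CCAAT box (CCAAT, 37.5%). The GC box GGGCGG, found in 33.1% of promoters, was in the windows of Cyba, Duox2, Duoxa1 and Nox4. The NF-kB motif (4.18% of promoters) was in that of Nox1, and the STAT motif TTCNNNGAA (8.87%) was in none of the 9. Some of the GC boxes of Duoxa1 overlapped each other. The GC content of the windows ran from 35.7% for Cybb to 73% for Nox4, against a median of 51.7% over all promoters. A match of letters is not a bound site, and no binding was measured.

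All values are FPKM as the authors deposited them, fragments scaled by exon length and by all mapped fragments. Levels of different genes are set side by side on that scale, although the annotation behind the exon lengths is not known. Differences are on log2(FPKM + 0.1), which understates the change of low genes, and the depth of each library is unknown. A listed 0 was not taken as absence, because 4871 genes were at 0 in every week 4 sample, among them the urothelial keratin gene Krt7, at 595 to 956 FPKM in the week 5 normal samples. The labels name no batch. For the same reason, and because only week 4 columns carry the suffix Input, week and any difference in library handling cannot be told apart. Urothelial markers were high in every group, with sums over 13 genes of 4283 FPKM or more. Smooth muscle markers (8 genes) summed to between 24767 and 29124 FPKM in the week 5 normal samples but to 1860 and 994 FPKM in the week 5 PBOO samples. The week 5 PBOO libraries thus held little of the muscle transcripts that fill the other 9 libraries, and in bulk tissue fewer cells of a type and less RNA per cell cannot be told apart.

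Duox2 and its maturation factor Duoxa2 stood furthest from normal in obstructed bladder on the log2(FPKM + 0.1) scale, and they did so at week 5. Duox2 was at 1.06, 0.843 and 1.17 FPKM in the normal samples of week 5 and at 246 and 157 FPKM in the PBOO samples. Duoxa2 was at 0.456, 0.598 and 0.506 FPKM in the same normal samples and at 383 and 328 FPKM in the PBOO samples. For both genes each PBOO sample lay far above all normal samples. The log2 difference was 7.46 (SE 0.25 from limma) for Duox2 and 9.17 (SE 0.17) for Duoxa2. Among all 18507 genes, Duoxa2 ranked 148 and 202 from the top in the PBOO samples, and no higher than 13122 in the normal samples of that week. Markers of the urothelium, the epithelium in which such genes could be expressed, were of like sum in both groups, at 10585 and 11391 FPKM under PBOO and 8262 to 10848 FPKM in normal bladder, but differed in kind, with 2 of the 13 called higher and 4 lower. The basal keratin gene Krt5 was at 780 and 2859 FPKM in the PBOO samples against 97.4 to 182 FPKM. The superficial keratin gene Krt20 was at 0.940 and 0.383 FPKM against 37.5 to 90.6 FPKM. Of the uroplakin genes, Upk2 (log2 difference -2.39, limma adjusted p = 5.3e-04) and Upk3b (-3.17, limma adjusted p = 0.0062) were called lower. Upk1a and Upk1b were not called, but both PBOO samples lay below all normal samples. Only Upk3a overlapped, at 1835 and 1656 FPKM against 1557 to 1796 FPKM. Markers of squamous epithelium (7 genes) summed to 1106 and 2301 FPKM in the PBOO samples against 631 to 942 FPKM. Of the 5 that could be tested, 3 were called higher, Krt16, Krt17 and Ivl, beside 7.91% of all genes. Krt16 and Krt17 passed the filter of a mean of 0.5 FPKM only through their PBOO levels, and both were higher in replicate 2. Krt17 was at 2.51 and 19.3 FPKM and Ivl at 38.4 and 36.4 FPKM in replicates 1 and 2. Sprr1a and Krt14 made most of the sums and were not called. Sprr1a was at 953 and 1154 FPKM against 608 to 848 FPKM. Krt14 was at 112 and 1078 FPKM against 15.7 to 83.3 FPKM. The median log2 difference over the 5, 3.19, was that of Krt14 (limma adjusted p = 0.081). Krt13 of that list was at 0 in the 3 normal samples. The part of these epithelial markers in the DUOX levels was not tested.

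At week 4 the same pair did not separate the groups. Duox2 was at 0.663, 0.815 and 0.714 FPKM in the normal samples and at 2.87, 0.502 and 0.177 FPKM in the PBOO samples. Duoxa2 was at 0.650, 1.07 and 1.54 FPKM in the normal samples and at 5.42, 0.890 and 0.405 FPKM in the PBOO samples. PBOO replicate 1 held the highest level of either gene in the week, PBOO replicate 3 held the lowest, and the groups overlapped. The log2 difference was -0.07 (SE 0.82) for Duox2 and 0.31 (SE 0.85) for Duoxa2. Without PBOO replicate 1 these values were -1.02 and -0.68, so the direction for Duoxa2 rested on that sample.

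**Figure D1:**
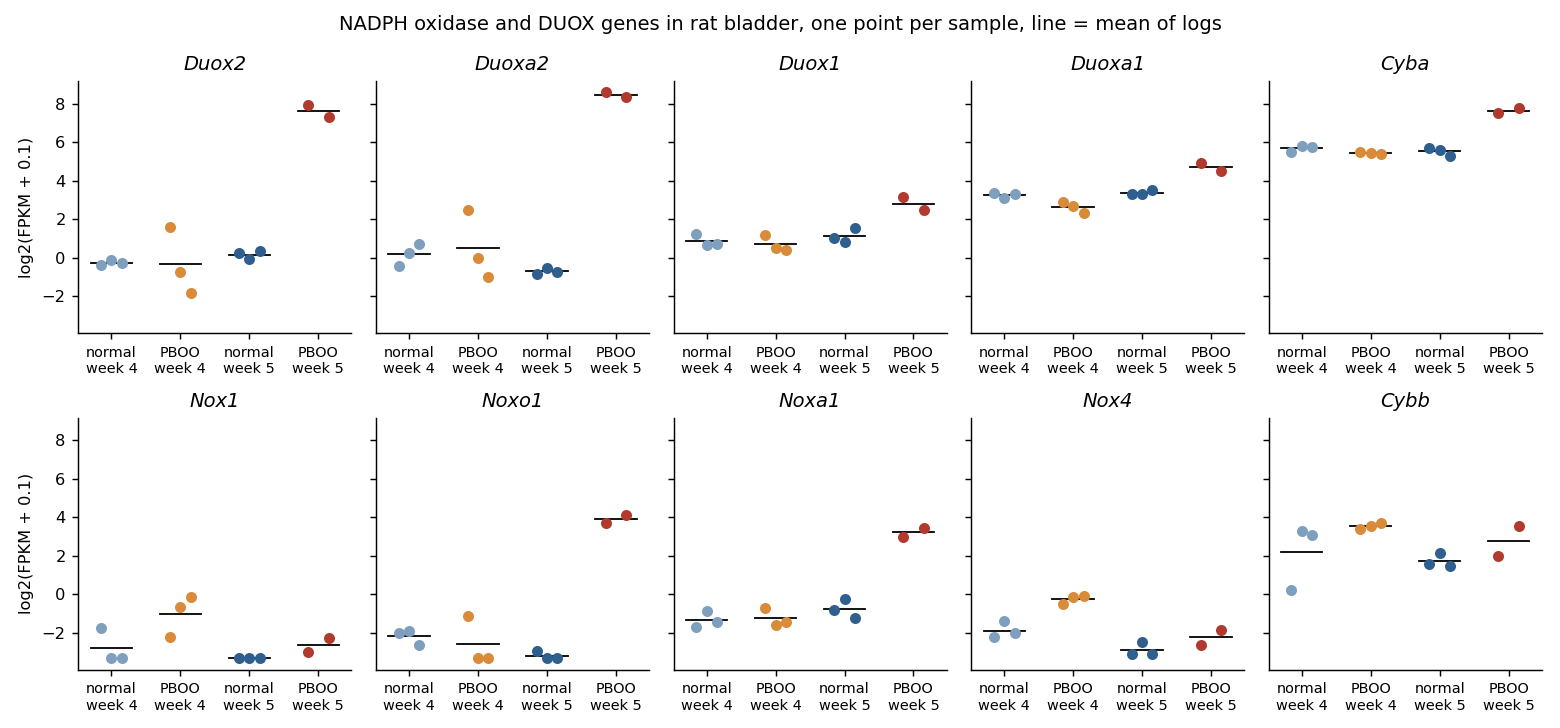
Levels of the 10 genes in each sample, as log2(FPKM + 0.1) on the vertical axis, for the 4 groups on the horizontal axis; each point is a sample and each line the mean of the logs. The 2 PBOO samples of week 5 lie above all other samples for Duox2, Duoxa2, Duox1, Duoxa1, Cyba, Noxo1 and Noxa1.

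The paralogous pair was expressed in normal bladder at a higher level and stood less far from it in PBOO. Duox1 was at 1.92, 1.64 and 2.78 FPKM in the week 5 normal samples and at 8.93 and 5.37 FPKM in the PBOO samples, a log2 difference of 1.70 (SE 0.32) with no overlap. Duoxa1 was at 9.68, 9.81 and 11.3 FPKM against 29.9 and 22.4 FPKM, a log2 difference of 1.33 (SE 0.17) with no overlap. Both PBOO samples held more of each transcript than any normal sample, with replicate 1 the higher.

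At week 4, Duox1 was at 2.24, 1.47 and 1.53 FPKM in the normal samples and at 2.14, 1.32 and 1.20 FPKM in the PBOO samples. The groups overlapped, with a log2 difference of -0.18 (SE 0.32). Duoxa1 was at 10.3, 8.60 and 9.87 FPKM in the normal samples and at 7.24, 6.37 and 4.98 FPKM in the PBOO samples. All 3 PBOO samples were below all 3 normal samples, and the log2 difference was -0.63 (SE 0.18). The median of all 11320 genes tested at week 4 was itself -0.25, and after median-ratio scaling of the samples the value for Duoxa1 was -0.38. Relative to the epithelial genes Epcam and Cdh1 in the same sample, an alternative chosen after the data were seen, it was 0.16. The urothelial marker sum was 4283 to 5415 FPKM in the PBOO samples of week 4 against 7147 to 9119 FPKM in the normal ones.

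In the ratio of the paralogs the groups of week 5 were further apart than in any single Duox1 or Duoxa1 level. Duox2 was at 0.554, 0.512 and 0.419 times the level of Duox1 in the week 5 normal samples, and at 27.6 and 29.1 times in the PBOO samples. In PBOO replicate 1 of week 4 the ratio was 1.34, and in the other week 4 samples it ran from 0.147 to 0.555. The ratio of Duoxa2 to Duox2 was 1.56 and 2.10 in the week 5 PBOO samples and between 0.428 and 0.710 in the normal samples of that week. At week 4 this ratio was 0.979, 1.31 and 2.16 in normal bladder and 1.89, 1.77 and 2.28 under PBOO, so the groups overlapped and a normal sample reached the week 5 PBOO range. How reads from the adjoining 5′ ends of these genes were assigned cannot be told, since the strand of counting is not given in the sources used here.

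The NOX1 group was low in normal bladder, and its cytosolic partners, but not the enzyme, were high in week 5 PBOO. Noxo1, the organizer, was at 0.0321, 0 and 0 FPKM in the week 5 normal samples and at 12.8 and 17.2 FPKM in the PBOO samples, with no overlap. The log2 difference was 7.09 (SE 0.37), a value that depends on the added 0.1 FPKM and was 3.98 with 1 FPKM added. Noxa1, the activator, was at 0.467, 0.756 and 0.323 FPKM in the normal samples and at 7.93 and 10.8 FPKM in the PBOO samples, a log2 difference of 3.98 (SE 0.37) with no overlap. For both partners PBOO replicate 2 was the higher sample, the reverse of the order for the DUOX genes.

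Nox1 itself was listed at 0 in all 3 normal samples of week 5 and at 0.0261 and 0.108 FPKM in the PBOO samples, so it stayed below the filter of a mean of 0.5 FPKM and no fold is given. At week 4 it was at 0.196, 0 and 0 FPKM in the normal samples and at 0.116, 0.541 and 0.800 FPKM in the PBOO samples, which overlapped. Noxo1 at week 4 was at 0.148, 0.171 and 0.0603 FPKM in the normal samples and at 0.361, 0 and 0 FPKM in the PBOO samples. Noxa1 was at 0.209, 0.442 and 0.273 FPKM against 0.505, 0.237 and 0.265 FPKM. Neither partner separated the groups at week 4, and PBOO replicate 1 was again the highest sample for both.

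Cyba, the shared p22phox subunit, was the most abundant of the 10 transcripts in both normal groups. It was at 52.3, 47.8 and 39.4 FPKM in the week 5 normal samples and at 180 and 219 FPKM in the PBOO samples. The log2 difference was 2.10 (SE 0.17), with both PBOO samples above every normal one. At week 4 it was at 44.8, 55.3 and 54.6 FPKM in the normal samples and at 45.4, 43.4 and 41.0 FPKM in the PBOO samples, which overlapped. The week 4 log2 difference was -0.25 (SE 0.12), equal to the median of all genes, and it was 0.00 after median-ratio scaling.

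Nox4, an oxidase that releases hydrogen peroxide without cytosolic partners, had its highest levels in the other week. It was at 0.112, 0.282 and 0.145 FPKM in the normal samples of week 4 and at 0.606, 0.801 and 0.848 FPKM in the PBOO samples. All 3 PBOO samples were above all 3 normal samples, although their mean with the normal samples was below the filter, and the log2 difference was 1.64 with no error given. At week 5 it was at 0.0187, 0.0798 and 0.0164 FPKM in the normal samples and at 0.0631 and 0.178 FPKM in the PBOO samples. These groups overlapped, and every level was low. The sum of the 8 smooth muscle markers was 50905 to 82146 FPKM in the PBOO samples of week 4 against 25492 to 27555 FPKM in the normal ones. Actg2, at a mean of 22070 against 4421 FPKM, made the largest part of that gap. It was the 1 marker of the 8 called higher, beside 0.265% of all genes. Smtn (log2 difference 0.02) and Lmod1 (0.21) overlapped, and the rest were above normal in every PBOO sample. The part of these markers in the Nox4 levels was not tested.

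Cybb, the catalytic subunit of the phagocyte oxidase, did not separate the groups at week 5. It was at 2.90, 4.31 and 2.72 FPKM in the normal samples and at 3.87 and 11.7 FPKM in the PBOO samples. PBOO replicate 1 fell within the normal range and replicate 2 above it. The log2 difference was 1.03 (SE 0.49), and it was 0.25 without PBOO replicate 2. That library also held a higher sum over 9 neutrophil markers, at 448 FPKM against 16.3 FPKM in replicate 1. The normal samples held 1.28 to 4.65 FPKM. Most of the replicate 2 sum was S100a8 and S100a9, at 145 and 287 FPKM there and at 2.74 and 8.87 FPKM in replicate 1. Replicates 2 and 1 were closer for Csf3r (5.27 and 1.61 FPKM) and Cxcr2 (3.86 and 1.08 FPKM). Of the 9 markers, Mpo and Elane, which encode granule enzymes, were at 0.0803 and 0.0219 FPKM in replicate 2 and at 0 in replicate 1. Over 11 macrophage markers the sums were 979 and 320 FPKM in replicates 2 and 1, against 68.6 to 170 FPKM in the normal samples. Lyz2 alone was at 545 and 96.2 FPKM in replicates 2 and 1. Cd68 and Cd14 were higher in replicate 1, and the other markers of the list in replicate 2. Of the 11, 3 were called higher and 0 lower, and the log2 differences of Mrc1 and Cd163 were negative (-0.53 and -0.39).

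At week 4, Cybb was at 1.05, 9.86 and 8.42 FPKM in the normal samples and at 10.3, 11.8 and 12.8 FPKM in the PBOO samples. All PBOO samples were above all normal samples, and the log2 difference was 1.34 (SE 0.77). Most of it came from normal replicate 1, without which the value was 0.34. In that sample the macrophage marker sum was 131 FPKM, against 881 and 959 FPKM in the other normal samples and 657 to 1050 FPKM in the PBOO samples. Fibroblast markers were also low there, at 1012 FPKM over 7 genes against 3492 to 4250 FPKM in the other 5 samples of the week. Cybb relative to the macrophage receptor gene Csf1r was 0.193, 0.240 and 0.172 in the normal samples and 0.293, 0.326 and 0.294 under PBOO, so the groups did not overlap in this ratio either.

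**Figure D2:**
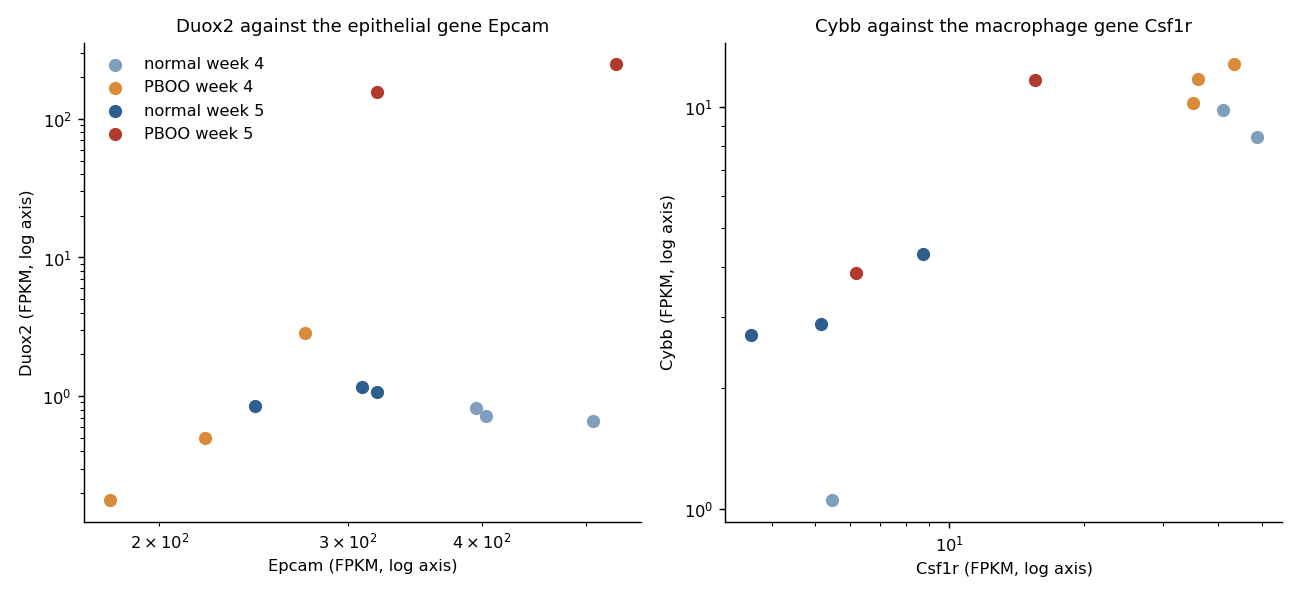
Duox2 against the epithelial gene Epcam (left) and Cybb against the macrophage gene Csf1r (right), in FPKM on log axes, each point a sample and each colour a group. The PBOO samples of week 5 lie far above the rest for Duox2 at Epcam levels of 320 and 533 FPKM, while Cybb is low where Csf1r is low.

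For the contrast of epithelial and phagocyte oxidases, the members were set against genes of the cells that carry them. Duox2 was at 0.462 and 0.490 times the level of Epcam in the week 5 PBOO samples and at 0.00333, 0.00343 and 0.00377 times in the normal samples. Epcam itself was at 533 and 320 FPKM in those PBOO samples and at 319, 246 and 309 FPKM in the normal samples. Relative to the mean log2 level of Epcam and Cdh1, the week 5 log2 differences were 7.0 for Duox2, 8.71 for Duoxa2, 6.63 for Noxo1 and 3.52 for Noxa1. They were 1.64 for Cyba, 1.24 for Duox1 and 0.87 for Duoxa1. This scale takes the same amount off every member. Cybb relative to Csf1r was 0.626 and 0.749 in the week 5 PBOO samples and 0.561, 0.493 and 0.756 in the normal samples, which overlapped. The level of Cyba was 46.5 and 18.8 times that of Cybb in the PBOO samples and 18.1, 11.1 and 14.5 times in the normal samples.

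**Figure D3:**
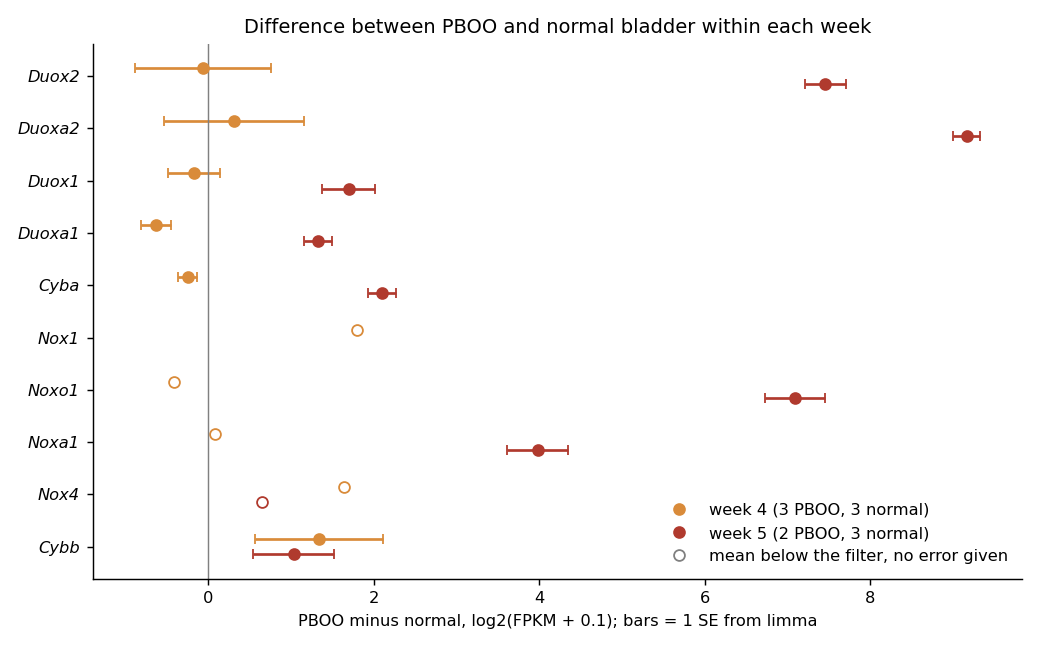
PBOO minus normal on log2(FPKM + 0.1) for each gene at week 4 and week 5, with bars of 1 SE from limma; open points are genes below the filter on the mean, with no error. Nox1 at week 5 is left out because all normal samples are listed at 0. At week 5 the values run from 1.03 for Cybb to 9.17 for Duoxa2 among genes that passed the filter, and at week 4 from -0.63 to 1.34.

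A gene was called at an adjusted p under 0.05 (limma, Benjamini-Hochberg over all genes tested) with at least a 2-fold difference. Of the 10 members, 6 passed the filter at week 4, where Nox1, Noxo1, Noxa1 and Nox4 were too low, and none of the 6 was called. The background of that week was 0.265% of genes called higher and 0.106% called lower in PBOO, and 1 of the 6 members, Duoxa1, had an unadjusted p under 0.05, with a lower level, as did 26.2% of all genes. Cybb was the 1 member of the 6 with every PBOO sample above every normal sample, against 6.63% of all genes, and Duoxa1 the 1 member with every PBOO sample below, against 34.9%. At week 5, 8 members passed the filter, Noxo1 only through its PBOO level, and Nox1 and Nox4 did not. Of these 8, 7 were called higher, against 7.91% of all genes, and 0 were called lower or had an unadjusted p under 0.05 with a lower level, against 11.4% called lower and 18.8% at such a p; the 7 also had an unadjusted p under 0.05, as did 24.6% of all genes with a higher level. The same 7 had both PBOO samples above every normal sample, against 35.3% of all genes, and 0 members had both below, against 25.0%. Since the members were selected on this contrast, nothing is read from these counts.

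**Figure D4:**
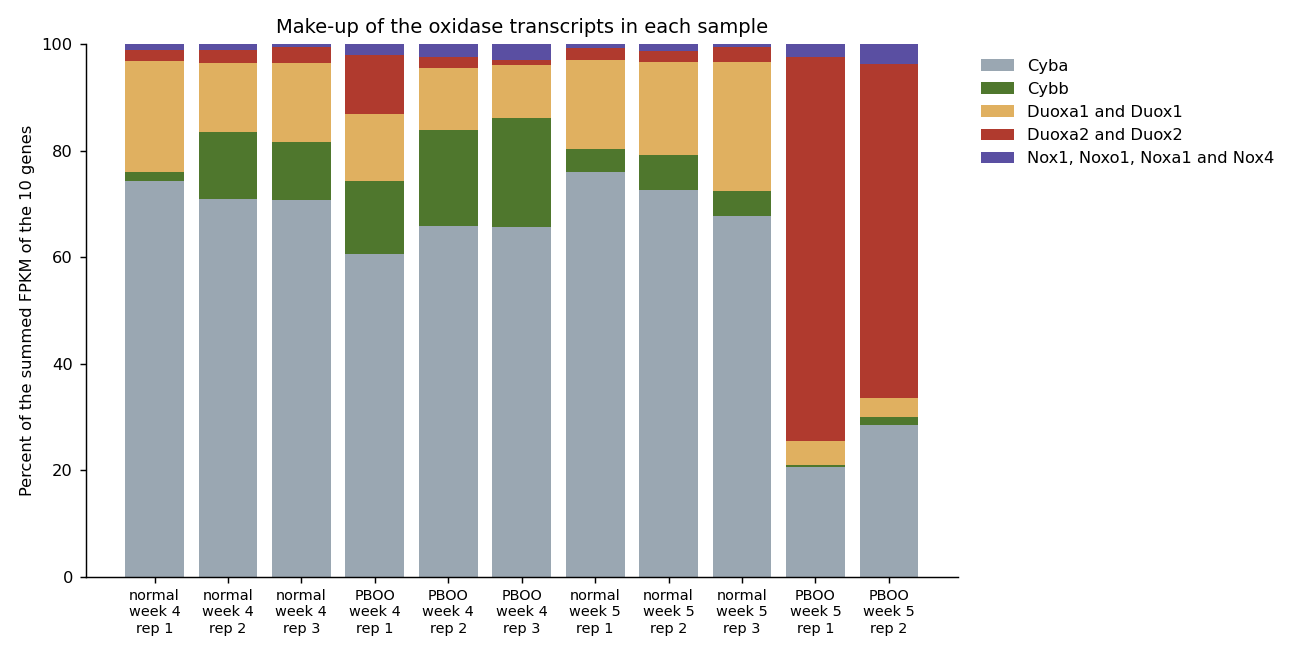
Share of the summed FPKM of the 10 genes taken by each gene or group of genes, in percent on the vertical axis, with a bar for each of the 11 samples. Cyba makes up 60.6% to 76.0% in the 9 samples other than week 5 PBOO, where Duox2 and Duoxa2 together make up 72.1% and 62.8%.

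The make-up of the oxidase transcripts differed accordingly. The 10 genes summed to 873 and 771 FPKM in the week 5 PBOO samples and to 58.2 to 78.0 FPKM in the other 9 samples. In the order of means, the normal samples of both weeks were led by Cyba and then Duoxa1, with Cyba above Duoxa1 in every sample. In week 5 normal bladder Cybb and Duox1, next in order, overlapped in their spread, and Duoxa2 and Noxa1 could not be ordered either. In week 5 PBOO bladder Duoxa2 came first, above Duox2 without overlap, while Duox2 and Cyba overlapped with each other. In the PBOO samples of week 4, Cybb ranked second after Cyba and above Duoxa1, with no overlap on either side.

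The difference between the weeks is given for the members as a value, since it uses the same contrast. The effect of obstruction at week 5 minus that at week 4 was 7.53 (SE 1.0) for Duox2, 8.85 (SE 1.04) for Duoxa2 and 7.50 (SE 0.93) for Noxo1 on the log2 scale. It was 3.90 (SE 0.59) for Noxa1, 2.35 (SE 0.20) for Cyba, 1.96 (SE 0.25) for Duoxa1 and 1.87 (SE 0.47) for Duox1. For Cybb it was -0.30 (SE 1.07), smaller than its error. The median over the 11296 genes tested was 0.35, and -0.00 after median-ratio scaling.

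The genes most like a member were ranked by Pearson r of log2(FPKM + 0.1), centred within each week, over the 11 samples and 9970 genes with at least 1 FPKM on average in each week. These points share libraries that set much of the spread, so r is a description. The 2 week 5 PBOO libraries gave 55.0% of the sum of squares of Duox2, but 17.3% of that of Cybb and 10.8% of that of Nox4. For Duox2 the week 4 samples together gave 8.37%, so nearly all of its spread lay in the week 5 samples. For Cybb, normal replicate 1 of week 4 alone gave 61.9%, and for Nox4 the 6 week 4 samples gave 81.1%. For Duox2 the order was Duoxa2 (r = 0.993), the adhesion molecule gene Ceacam1 (0.990), Lpcat4 (0.987) and Spats2 (0.982). Ceacam1 averaged 33.9 FPKM in week 5 PBOO and 1.72 FPKM in the normal samples of that week. Among the other members Cyba had r = 0.939 and Duox1 0.925 with Duox2, and Cybb 0.285. For Cybb the order was the lectin receptor gene Clec4a3 (r = 0.964), Gda (0.963), Csf1r (0.962), the complement receptor gene C5ar1 (0.961) and Cd4 (0.959). For Nox4 it was the cadherin gene Cdh13 (r = 0.946), Adcy7 (0.931), Unc13b (0.928), Mfge8 (0.924) and Ldlrad4 (0.912). Nox4 itself was below the level asked of the ranked genes, at most 0.848 FPKM in any sample. Its week 5 levels, 0.0164 to 0.178 FPKM, were near the added 0.1 FPKM, which limits these values of r. Mfge8 averaged 302 FPKM in week 4 PBOO against 96.4 FPKM in the normal samples.

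Of the 8 nearest protein-coding neighbours of the DUOX genes on chromosome 3, 4 on each side, 4 could be tested at week 5. Sord and B2m, both on the Duox2 side, were called higher, beside 7.91% of all genes. Sord, the sorbitol dehydrogenase gene next to Duox2, was at 19.8, 21.7 and 16.7 FPKM in the normal samples and at 111 and 81.0 FPKM in the PBOO samples, a log2 difference of 2.29 (SE 0.19, limma adjusted p = 0.0011). B2m, encoding the light chain of MHC class I, was at 448, 605 and 449 FPKM against 1061 and 2028 FPKM under PBOO, a log2 difference of 1.57 (limma adjusted p = 0.018). On the other side, Shf next to Duox1 had a log2 difference of -0.14 (SE 0.25, limma adjusted p = 0.706). Slc28a2, beyond Shf, had 1.11 (SE 0.47, limma adjusted p = 0.131) and was not called, at 3.21 and 9.15 FPKM under PBOO against 1.90 to 3.11 FPKM. At week 4 neither Sord nor B2m was called, and Sord had a log2 difference of -0.17 (SE 0.23, limma adjusted p = 0.600).

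Other genes of oxidant production and removal were counted over 64 symbols in 7 lists, of which Nox3 and Cybc1 were not matched. At week 5, 58 of the 62 matched genes could be tested, and 12 were called higher and 8 lower in PBOO (10 and 8 after median-ratio scaling), beside 7.91% and 11.4% of all genes. Their median log2 difference was 0.32, beside 0.12 over all genes. At week 4, 55 could be tested, with 1 called higher and 0 lower by limma. At an unadjusted p under 0.05, 4 of the 55 were higher and 15 lower, beside 5.76% and 26.2% of all genes. After median-ratio scaling these were 5 higher and 7 lower, beside 1321 and 1019 of 11316 genes. The p-values measure the spread between the samples of a group, and the labels do not name the rats.

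Of the 12 partners of the oxidases, 3 rose at week 5, beside 7.91% of all genes, and none was called lower by limma or had an unadjusted p under 0.05 with a lower level. Ncf1, encoding the p47phox organizer of the phagocyte oxidase, was at 2.90, 3.38 and 1.87 FPKM in the normal samples and at 16.5 and 94.4 FPKM in the PBOO samples. The log2 difference was 3.85 (SE 0.73, limma adjusted p = 0.014), and the call was lost without normal replicate 3. Rac2, the small GTPase of blood cells, was at 6.44, 8.73 and 4.13 FPKM against 25.6 and 52.7 FPKM, a log2 difference of 2.56 (SE 0.42, adjusted p = 0.0090). Vav1, an exchange factor for Rac in blood cells, had a log2 difference of 2.18 (SE 0.60, adjusted p = 0.044), which was 1.45 without PBOO replicate 2. The Vav1 call was lost without that sample, without any 1 of the normal samples (adjusted p from 0.051 to 0.121), with no filter (0.060) and with no trend (0.061). In each of these genes replicate 2 was the higher PBOO sample, as for Cybb and the neutrophil markers, whose part in these values was not tested. Ncf4, a cytosolic subunit of the phagocyte oxidase named after its values were seen, had a log2 difference of 1.40 (SE 0.50, adjusted p = 0.087). Rac1, the ubiquitous GTPase, was at 178, 178 and 177 FPKM in the normal samples and at 205 and 165 FPKM in the PBOO samples, and its log2 difference was 0.05 (SE 0.14, adjusted p = 0.792).

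Genes that remove superoxide and peroxide went in both directions at week 5, with 3 of 16 called higher and 4 lower, beside 7.91% and 11.4% of all genes. Gpx2, the glutathione peroxidase of epithelia, rose from 4.20, 2.90 and 3.77 FPKM in the normal samples to 40.6 and 130 FPKM in the PBOO samples, a log2 difference of 4.30 (SE 0.49, limma adjusted p = 0.0029). Sod2, the mitochondrial superoxide dismutase, had a log2 difference of 1.35 (SE 0.34, adjusted p = 0.033), which was 0.76 without PBOO replicate 2. Its call was lost without that sample, where it fell short of 2-fold, without any 1 of the normal samples (adjusted p from 0.085 to 0.107), and with no trend (0.053). Of the genes that fell, Sod3 and Gpx3 encode secreted enzymes, and Gpx7 and Gpx8 enzymes of the endoplasmic reticulum. Sod3, the extracellular dismutase, fell by 3.04 on the log2 scale (SE 0.36, adjusted p = 0.0031), from 20.5, 22.3 and 20.7 FPKM to 3.86 and 1.59 FPKM. Gpx8 fell by 3.34 (SE 0.24, adjusted p = 6.4e-04). Gpx3 fell by 2.94 (SE 0.58, adjusted p = 0.016) and Gpx7 fell by 2.09 (SE 0.40, adjusted p = 0.014). The Gpx3 call was lost without normal replicate 1 or 2 (adjusted p = 0.060 in both), and its value was -1.91 without PBOO replicate 1. The Gpx7 call was lost without any 1 of the normal samples (adjusted p from 0.050 to 0.057). In the same samples 5 of 7 fibroblast markers and 8 of 8 smooth muscle markers were called lower, and their part in these values was not tested.

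In the other lists, Slc7a11, the cystine transporter gene, rose from 0.435, 0.443 and 0.412 FPKM to 4.31 and 7.45 FPKM at week 5, a log2 difference of 3.45 (SE 0.32, limma adjusted p = 0.0016). Slc7a11 passed the filter of that week only through its PBOO level, and its log2 difference was 2.23 with 1 FPKM added. Nqo1, a quinone reductase gene and target of NRF2, had a log2 difference of 1.52 (SE 0.37, adjusted p = 0.030), which was 0.87 without PBOO replicate 2. The thioredoxin gene Txn1 had 1.24 (SE 0.26, adjusted p = 0.019), which was 0.83 without that replicate. The calls of both were lost without that replicate, where they fell short of 2-fold, and without any 1 of the normal samples (adjusted p from 0.084 to 0.097 for Nqo1 and from 0.066 to 0.074 for Txn1). Idh1, an isocitrate dehydrogenase that makes NADPH, had 1.62 (SE 0.12, adjusted p = 8.5e-04), at 175 and 154 FPKM against 49.5 to 55.9 FPKM. Me1, the malic enzyme that also makes NADPH, fell by 1.78 on the log2 scale (SE 0.25, adjusted p = 0.0052). Nos2, the inducible nitric oxide synthase gene, was listed at 0.0205, 0 and 0 FPKM in the normal samples and at 2.16 and 9.27 FPKM in the PBOO samples (limma adjusted p = 0.0043). Nos2 too passed the filter only through its PBOO level, and its log2 difference of 5.43 was 2.50 with 1 FPKM added. Maoa, a monoamine oxidase gene, fell by 2.61 (SE 0.17, adjusted p = 5.2e-04) and the aldehyde oxidase gene Aox1 fell by 2.21 (SE 0.28, adjusted p = 0.0039).

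The peroxidase gene Pxdn, whose product crosslinks collagen IV, was the 1 gene of the lists called at week 4. It was at 11.9, 13.5 and 13.6 FPKM in the normal samples and at 29.3, 39.6 and 52.0 FPKM in the PBOO samples, a log2 difference of 1.59 (SE 0.21, limma adjusted p = 0.048). The groups did not overlap. The call was lost after median-ratio scaling, with no filter and with no trend, and when any 1 sample other than PBOO replicate 1 was left out. At week 5 it fell by 1.78 on the log2 scale (SE 0.29, adjusted p = 0.0089), from 9.99, 13.7 and 11.6 FPKM to 2.44 and 4.49 FPKM. Maob, Txnip and Nfe2l2 had the largest negative values among list genes without overlap at week 4, at -1.10 (SE 0.33, adjusted p = 0.089), -0.83 (SE 0.18, adjusted p = 0.058) and -0.67 (SE 0.14, adjusted p = 0.055), and none of the 3 was called. Lpo, a peroxidase that uses the hydrogen peroxide of such oxidases, was at 0.313 and 9.50 FPKM in week 5 PBOO and listed at 0 in the normal samples of that week. It was not called at week 5 (limma adjusted p = 0.061), and its difference between the weeks was called (limma adjusted p = 0.029). Lpo passed the filter only through its week 5 PBOO level. Mpo, another such peroxidase, was at most 0.478 FPKM in any sample.

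**Figure D5:**
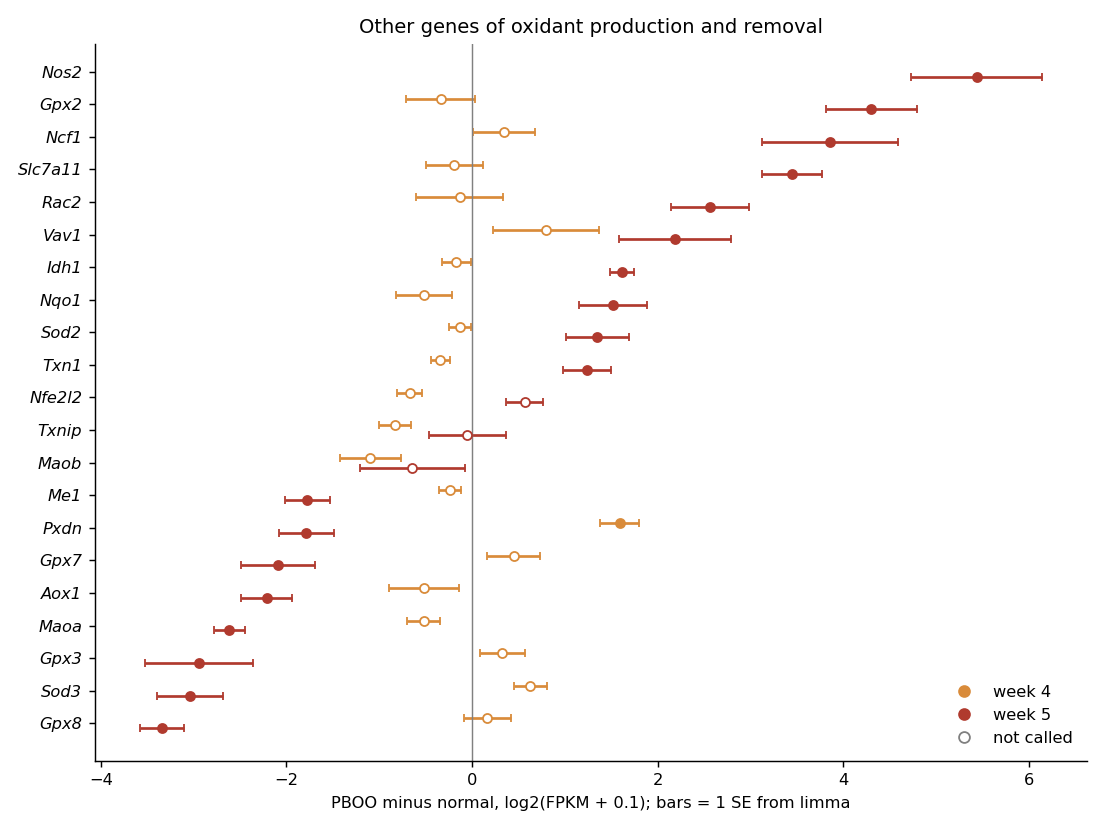
PBOO minus normal on log2(FPKM + 0.1) for the named genes outside the 10 members, with bars of 1 SE from limma; filled points were called and open points were not, and Nos2 has no week 4 value because it was below the filter. At week 5 the values run from -3.34 for Gpx8 to 5.43 for Nos2, and at week 4 Pxdn alone is called. Nos2 and Slc7a11 passed the week 5 filter only through their PBOO levels, and the Nos2 value depends on the added 0.1 FPKM.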

How the data were processed

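RNA-seq of bladder tissue was analysed for the 11 samples, grouped by the sample titles. Per the methods, the authors trimmed paired reads, mapped them with HISAT2, assembled transcripts with StringTie and deposited FPKM values from featureCounts, one table of 18507 genes. The submitters' processing notes name the mouse build mm10, while the samples are rat and the table carries rat symbols (36 begin with RT1- and 425 with RGD), so the build behind the values is uncertain. Neither annotation nor strand of counting is given in the sources used here. No reads were recovered, and the depth is unknown.

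Each week was fitted alone with limma 3.58.1 (R 4.3.3; lmFit and eBayes with trend) on log2(FPKM + 0.1), keeping genes whose mean reached 0.5 FPKM (11320 at week 4, 13685 at week 5). The difference of the 2 effects was fitted over all 11 samples. Steps were tested on simulated data. The 10 members and all lists were chosen with earlier results of these data known. List genes were named if called with groups that did not overlap, up to 10 per direction, or else up to 3 with the largest difference. Alternatives were the pseudocount, filter, scaling, trend, joint fit, replicate block, threshold and leaving out each sample, and the scale relative to Epcam and Cdh1 was added after seeing the data. Same-numbered samples had correlations of deviations from -0.02 to 0.23 at week 4, against -0.21 to 0.09 for samples of different numbers. The numbers were not taken as pairs. Python 3.11.15 with numpy 2.4.6, pandas 2.3.3 and matplotlib 3.10.9 made tables and figures. Promoters are from RefSeq (GRCr8). Some genes that the lists or the ranking by likeness hold are not reported here.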

Additional observations from a re-analysis of the deposited data

Results flagged for a closer look

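The effect of obstruction differed between the weeks for 18 of the named list genes, by a test of the difference itself (limma over all 11 samples, adjusted over 11296 genes). Most of these genes were named for their week 5 calls, and the test uses the same week 5 values. Its outcome was therefore largely set by that choice, and the values are a description. Of all genes, 27.2% were called on this difference. The week 5 effect minus the week 4 effect on the log2 scale was positive for Nos2 (5.68), Gpx2 (4.64), Slc7a11 (3.64), Ncf1 (3.51), Rac2 (2.69), Nqo1 (2.04), Idh1 (1.78), Txn1 (1.59), Sod2 (1.48) and Nfe2l2 (1.24). It was negative for Sod3 (-3.67), Gpx8 (-3.50), Pxdn (-3.37), Gpx3 (-3.27), Gpx7 (-2.54), Maoa (-2.09), Aox1 (-1.70) and Me1 (-1.54). The adjusted p-values ran from 1.1e-04 for Gpx8 to 0.023 for Aox1. Over all list genes tested, 16 of 57 were called higher and 9 lower, and 10 and 9 after median-ratio scaling. Over all genes the split was 1759 higher and 1314 lower, and it turned to 892 and 1625 after that scaling. The Nos2 value depends on samples listed at 0.

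Duoxa1 was below normal in every PBOO sample of week 4 and above normal in every PBOO sample of week 5, with a difference between effects of 1.96 that was not tested because Duoxa1 was chosen on these values. The week and any difference in library handling between the weeks cannot be told apart for any of these genes.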

How the results depend on the processing

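At week 5 the values of the 8 members that passed the filter kept their sign under every alternative run. Nox1 and Nox4, below the filter, had values only with no filter and relative to Epcam and Cdh1. They kept their sign there, and the other alternatives were not examined for them. At week 4, Duoxa1 turned to 0.16 relative to Epcam and Cdh1, and Duox1, Duox2, Duoxa2, Noxo1 and Cyba, whose groups overlapped, also changed sign under at least 1 alternative. The week 4 calls were fragile. The 42 genes called became 0 with no filter, 0 with median-ratio scaling, 0 with no trend, 80 with quantile normalization, 233 with all samples fitted together and 555 at an unadjusted p with 2-fold. Leaving out 1 sample gave 0 to 719, the highest without PBOO replicate 1, 20 without normal replicate 1 and 0 without any of the other 4. For list genes at week 4, the 1 call became 0 with no filter, median-ratio scaling or no trend, 2 at an unadjusted p, and 0 to 1 with a sample left out. At week 5, 2637 calls became 1679 to 3503 with a sample left out (1679 without normal replicate 1) and 1432 at an unadjusted p with 4-fold, while the 20 list calls ranged from 14 to 26. The causes were not tested.

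With the replicate block, 55 genes were called at week 4, 2319 at week 5 and 2826 for the difference between weeks, and the list counts were 1 and 20; Txn1 at week 5 lost its call. The labels do not say whether samples of the same number are pairs. Only 2 PBOO samples at week 5, unknown depth and the low muscle transcripts of both limit the week 5 values.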
